A study of Mus musculus with 30 samples.

Results

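Of 41388 genes in the deposited tables, 31 make up a set of stellate cell and fibrosis genes, and this set was read across 20 RNA-seq libraries of mouse liver and hepatocytes. The members were chosen by name, as genes that hepatic stellate cells and myofibroblasts are known for, and each was found under 1 identifier (Ccn2 is also called Ctgf). The choice was made with earlier results of these data known. They comprise 5 fibrillar collagen chains, 4 microfibrillar or fibril-associated collagen chains, 4 other matrix proteins, 2 collagen-crosslinking enzymes, 5 matrix proteases and inhibitors, 3 ligands or matricellular signals, 2 receptors, 4 cytoskeletal or contractile proteins and 2 genes of quiescent stellate cells.

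Hepatic stellate cells lie between hepatocytes and the sinusoidal endothelium and store retinyl esters, which the enzyme encoded by Lrat makes. In injured liver they lose these stores and become myofibroblasts, which express smooth muscle actin (Acta2) and secrete collagen types I and III. TGF-beta drives matrix synthesis and PDGF drives proliferation of these cells. Lysyl oxidases crosslink the collagen, metalloproteinases cut it and the TIMP proteins inhibit that cutting.

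A1cf encodes APOBEC1 complementation factor, an RNA-binding protein of hepatocytes, and the series compared mice carrying an A1cf transgene (A1cf_Tg/+) or lacking A1cf (A1cf_-/-) with wild-type mice. Hepatocytes were taken at 12 weeks of age by collagenase digestion and kept overnight on collagen-coated dishes, with 3 pools labelled A1cf_Tg/+ and 3 of wild-type C57BL/6J mice. Whole livers were taken at 12 months, with 4 pools labelled A1cf_Tg/+ beside 4 of C57BL/6J, and, in a sequencing study of their own, 3 pools of A1cf_-/- beside 3 of C57BL/6NJ. Each pool joined RNA of 3 to 4 mice. The promoter and background strain of the transgene and the background strain of the knockout are not given in the sources used here. Replicates were pools, so p-values measure the spread between pools, and whether pools shared mice is not stated.

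The RNA-seq libraries held 17044839 to 37211328 counts. A1cf was at 24.5, 20.1 and 28.9 CPM (the count scaled to a common library total) in the knockout livers against 237, 203 and 199 in the C57BL/6NJ livers. In the livers labelled Tg it was at 163, 156, 159 and 174 CPM, below the 279, 217, 216 and 218 of the C57BL/6J livers, and in hepatocytes the groups overlapped. A1cf was thus not higher in the pools given as transgenic, which are called labelled Tg throughout. The 10 hepatocyte markers were detected throughout, summing to 36624 to 48677 CPM in the plated hepatocytes and 70964 to 110090 CPM in the livers. C57BL/6J liver pool 2 stood apart, since 17 skeletal muscle genes summed to 5596 CPM there and to 13.4 to 44.1 CPM in the other 7 livers of that comparison. The same genes summed to 289, 66.4 and 219 CPM in knockout pools 1, 2 and 3 and to 8.73 to 15.3 CPM in the C57BL/6NJ pools. Liver pool 3 labelled Tg had the highest value of 19 of the 28 members tested in that group. Values without C57BL/6J pool 2 and knockout pool 1 (muscle sums over 10 times the median of all livers) and without labelled Tg pool 3 accompany some of the results that they touch, not all.

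Promoter sequences were shown for pairs of members that sit together in the results below. Col1a2 and Col3a1 encode chains of the collagens that myofibroblasts secrete, and Mmp12 and Mmp13 encode proteases from 1 gene cluster that both peaked in labelled Tg liver pool 3. Windows run from 250 bases before to 50 after a RefSeq start site, 5′ to 3′ on the gene's strand, build GRCm38.p6. Capitals mark matches on either strand to TATAAA (the motif of TBP), CCAAT (the motif of NF-Y), GGGCGG (the motif of SP1), TGACTCA (the motif of AP-1) or GGAATG (the motif of TEAD factors).
Col1a2 (chr6:4505368-4505667, plus strand): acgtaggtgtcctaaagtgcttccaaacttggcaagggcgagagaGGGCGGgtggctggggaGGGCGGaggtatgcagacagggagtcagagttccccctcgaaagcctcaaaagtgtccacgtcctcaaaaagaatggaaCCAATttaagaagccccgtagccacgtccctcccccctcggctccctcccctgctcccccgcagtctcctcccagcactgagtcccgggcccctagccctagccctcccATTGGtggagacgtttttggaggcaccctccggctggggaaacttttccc
Col3a1 (chr1:45311288-45311587, plus strand): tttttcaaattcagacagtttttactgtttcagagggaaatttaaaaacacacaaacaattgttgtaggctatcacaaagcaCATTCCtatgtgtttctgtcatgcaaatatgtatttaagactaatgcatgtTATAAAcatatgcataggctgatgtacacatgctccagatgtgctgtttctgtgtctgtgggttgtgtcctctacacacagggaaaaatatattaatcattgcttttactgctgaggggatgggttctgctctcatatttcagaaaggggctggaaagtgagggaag
Mmp12 (chr9:7347124-7347423, plus strand): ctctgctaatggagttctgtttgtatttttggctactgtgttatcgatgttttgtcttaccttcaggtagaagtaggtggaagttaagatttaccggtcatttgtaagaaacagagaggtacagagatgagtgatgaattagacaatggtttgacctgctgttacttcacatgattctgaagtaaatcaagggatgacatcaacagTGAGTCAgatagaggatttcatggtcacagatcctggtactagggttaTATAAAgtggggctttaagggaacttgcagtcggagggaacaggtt
Mmp13 (chr9:7272264-7272563, plus strand): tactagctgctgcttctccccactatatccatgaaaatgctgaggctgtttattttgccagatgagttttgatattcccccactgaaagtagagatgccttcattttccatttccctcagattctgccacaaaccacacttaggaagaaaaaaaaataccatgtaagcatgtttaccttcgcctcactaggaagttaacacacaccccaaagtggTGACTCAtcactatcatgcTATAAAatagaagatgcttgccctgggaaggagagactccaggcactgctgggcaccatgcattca
The Col1a2 window held 2 CCAAT and 2 GGGCGG matches, and that of Col3a1 held 1 TATAAA and 1 GGAATG match. Both protease windows held TATAAA once, with TGACTCA upstream of it. A further Mmp12 start site, chr9:7344147-7344446, and the Col6a3 window held none of the 5. Of 32851 windows over all genes, 13.6% held TATAAA, 37.4% CCAAT, 35.7% GGGCGG, 5.2% TGACTCA and 14.7% GGAATG, and no overlap between matches occurred in the windows shown. RefSeq windows were matched for 20 of the 31 members. Windows for Ccn2, Lox, Dcn, Col1a1, Loxl1, Col14a1, Mmp2, Pdgfrb, Lum, Col5a2 and Tagln were not used here. Several members are also neighbours in the genome, with 24614 bases between Col3a1 and Col5a2, 47338 between Dcn and Lum, 61047 between Mmp13 and Mmp12 and 85161 between Col6a2 and Col6a1.

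Wild-type C57BL/6J livers were first set against wild-type plated hepatocytes, to show in which of these materials each member's RNA was found. All 31 members passed the low-count filter and 28 differed at an adjusted p below 0.05, 21 higher and 7 lower in liver, where 72% of the 14824 genes tested differed (36.4% higher, 35.6% lower). The median log2 difference, liver minus hepatocytes, was 5.85 over the members and 0.04 over all genes. In 20 members every liver pool was above every hepatocyte pool and in 7 below, against 28.9% and 44.3% of all genes. Age, digestion, plating and sequencing differ together with tissue and cannot be told apart from it. Members with almost no reads in hepatocytes passed the filter through liver alone, so these counts are a description. The same libraries are the controls of later comparisons.

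The genes of quiescent stellate cells were lower in hepatocytes, where Lrat was nearly absent and Reln had 819 reads over the 3 wild-type pools. Lrat was at 43.8, 39.5, 37.8 and 30.8 CPM in the 4 C57BL/6J livers and at 0.0601, 0.0824 and 0.0854 in the 3 wild-type hepatocyte pools, the latter from 8 reads in all. Reln, which encodes the secreted glycoprotein reelin, was at 201, 229, 193 and 184 CPM in liver and 3.36, 14.2 and 5.38 in hepatocytes. Neither gene's groups overlapped.

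Matrix genes were also higher in liver. All 5 fibrillar collagens, all 4 of the type VI and XIV chains and all 4 other matrix proteins (Fbn1, Dcn, Lum and Postn) were called higher in liver. Dcn, the small proteoglycan decorin, was at 115, 167, 126 and 114 CPM in liver against 1.47, 2.83 and 1.74 in hepatocytes (log2 difference 6.39 ± 0.27 (SE), adjusted p = 1.56e-07). Col1a1 was the only one of these with overlapping groups, at 9.80, 20.1, 9.26 and 8.51 CPM in liver and 7.66, 7.0 and 8.94 in hepatocytes (log2 difference 0.96 ± 0.29 (SE), adjusted p = 0.0137). Both PDGF receptors were higher in liver as well, Pdgfrb at 18.6, 24.2, 20.5 and 17.3 CPM against 0.210, 0.137 and 0.142, the latter from 17 reads in all.

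The 7 members called lower in liver were the signals Ccn2 and Tgfb2, the cytoskeletal genes Vim and Tagln, the inhibitor Timp1, the protease Mmp12 and the crosslinking enzyme Lox. Vim, which encodes the intermediate filament vimentin, reached 1185, 917 and 1179 CPM in hepatocytes and 26.7, 50.2, 32.9 and 32.9 in liver (log2 difference -4.58 ± 0.24 (SE), adjusted p = 3.66e-07). Ccn2, a matricellular protein induced by TGF-beta and by YAP, was at 249, 636 and 638 CPM in hepatocytes and 3.13, 3.87, 5.18 and 4.34 in liver (log2 difference -6.54 ± 0.36 (SE), adjusted p = 4.73e-07). For both genes every hepatocyte pool was far above every liver pool.

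The remaining members of that group were less abundant. Tagln, which encodes the actin-binding protein transgelin, was at 143, 111 and 128 CPM in hepatocytes against 7.07, 7.82, 9.10 and 5.57 in liver. Tgfb2, a TGF-beta ligand, was at 25.0, 42.1 and 37.2 against 0.627, 1.30, 0.607 and 0.528 CPM, and Timp1 was at 11.2, 2.72 and 11.4 against 0.0570, 0.395, 0.221 and 0.117. Acta2, Tgfb1 and Mmp13 did not pass the threshold. Tgfb1 in particular was at 12.4, 14.8, 6.56 and 7.63 CPM in liver and 15.9, 11.3 and 18.2 in hepatocytes, overlapping groups. Of 8 YAP/TEAD target genes taken as a list, 7 were lower and 1 higher in liver, against 14 lower and 9 higher of 28 genes of TGF-beta signalling.

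**Figure D1:**
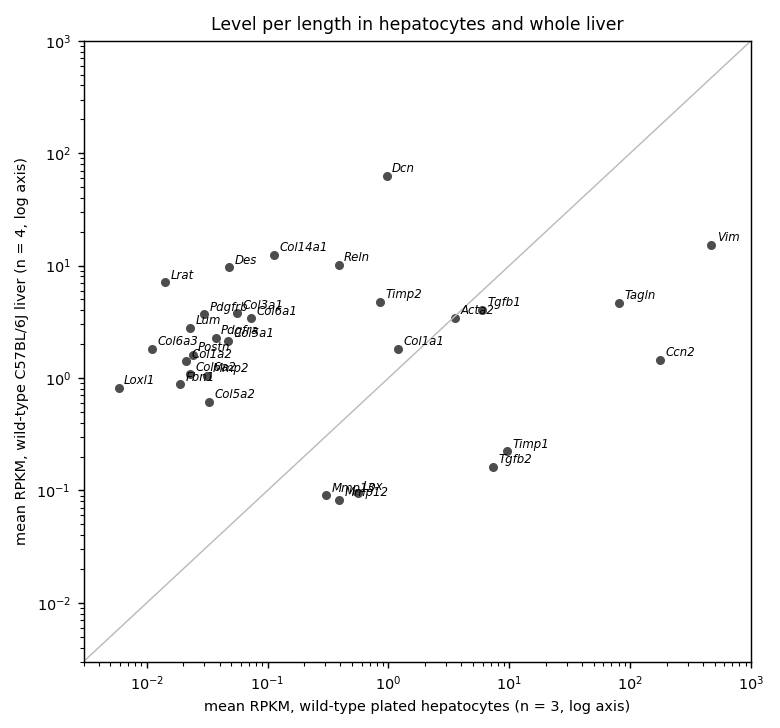
Mean RPKM (CPM divided by gene length in kilobases) of each member in wild-type plated hepatocytes (x axis, n = 3 pools) and wild-type C57BL/6J liver (y axis, n = 4 pools), both on log axes, with the line of equal levels. Vim, Ccn2, Tagln, Timp1, Tgfb2, Mmp12 and Lox lie below the line with Mmp13, Acta2 and Tgfb1 close to it, and the collagens, receptors and quiescent genes lie above it.

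Per gene length, the order of levels differed between the materials in the same way. Over the 14 livers, decorin came first with 69.0 ± 20.5 RPKM (mean ± SD), followed by Vim with 18.9 ± 9.83, Col14a1 with 14.6 ± 5.40, Reln with 10.2 ± 1.93, Lrat with 6.38 ± 1.40 and Tgfb1 with 5.92 ± 2.25. These means pool 4 groups whose levels differ. The SDs of Vim, Col14a1 and Reln overlap one another, and so do those of Lrat and Tgfb1. The lowest members were Mmp12 (mean 0.0823 RPKM), Mmp13 (0.0902) and Lox (0.0944) in C57BL/6J livers and Mmp13 (0.0557), Tgfb2 (0.105) and Lox (0.108) in C57BL/6NJ livers. In wild-type hepatocytes the first places went to Vim (mean 468 RPKM), Ccn2 (178), Tagln (80.2), Timp1 (9.52), Tgfb2 (7.36), Tgfb1 (5.92) and Acta2 (3.55). In hepatocytes labelled Tg the mean of Acta2 was 14.1 RPKM, after Vim, Ccn2 and Tagln.

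Livers labelled Tg were compared with C57BL/6J livers next. The members that rose were Col6a3, Lum, Ccn2 and Pdgfrb, and none fell by edgeR or DESeq2. That is 4 of 28 members tested, where 1.33% of 14110 genes were called (0.971% higher, 0.361% lower). At an unadjusted p below 0.05, 21 members were higher and 0 lower, against 11.7% higher and 8.55% lower of all genes. The median log2 fold change was 0.81 over the 28 members and 0.00 over all genes, and 26 members had an estimate above 0 (49.4% of all genes). In 12 members every pool labelled Tg was above every C57BL/6J pool, and 0 were the reverse, against 11.3% and 2.14% of all genes. Lox, Timp1 and Mmp13 did not pass the low-count filter.

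The 4 calls depended on the pools used. None was left without labelled Tg pool 3 or 4, or without C57BL/6J pool 1, 3 or 4, whereas 6 and 4 were called without labelled Tg pools 1 and 2. Leaving out C57BL/6J pool 2, the pool with muscle RNA, gave 12 calls, all higher, and leaving out labelled Tg pool 3 together with C57BL/6J pool 2 gave 10, a choice made after seeing the data. With DESeq2 13 members were called, all higher and including the 4. The members' median stayed between 0.64 and 0.93 when any 1 pool was left out.

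**Figure D2:**
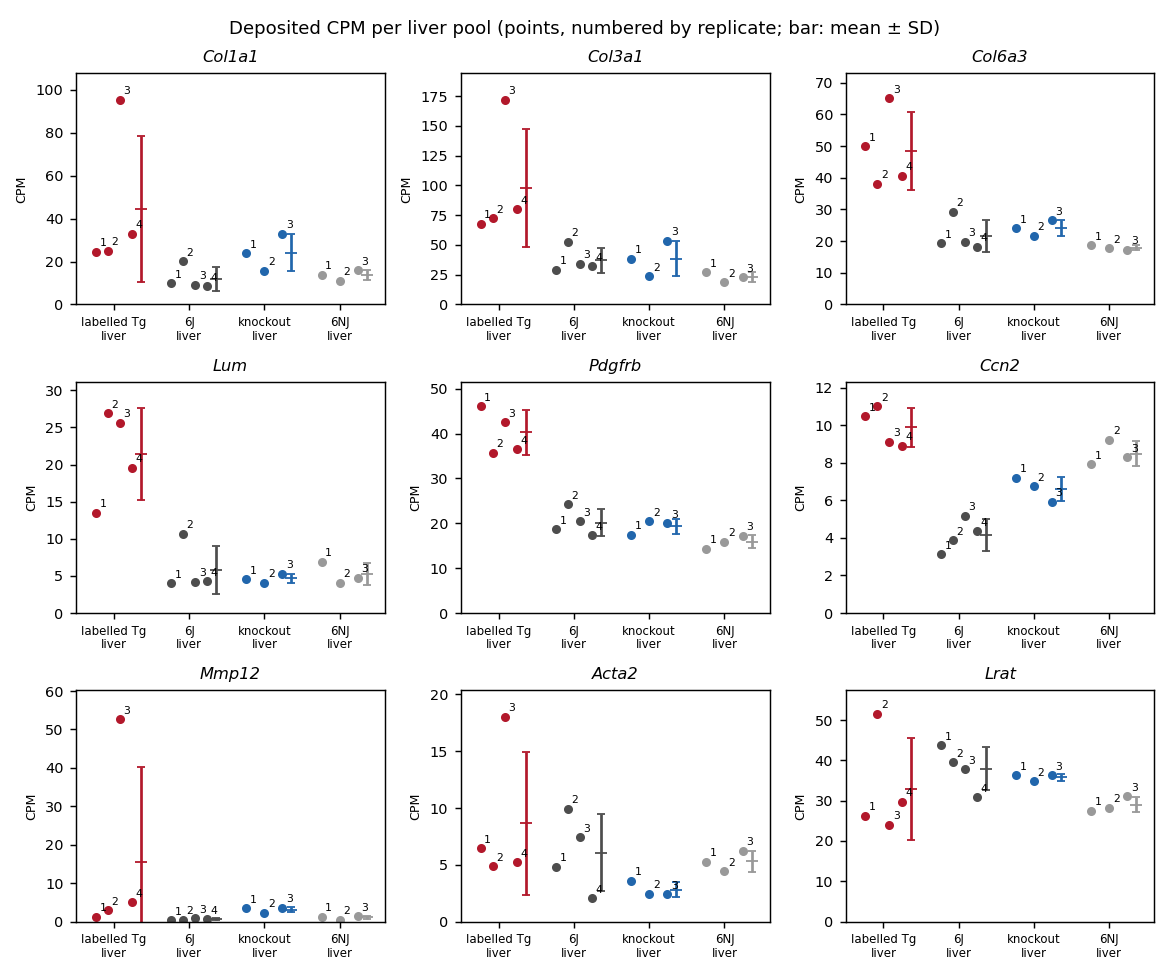
Deposited CPM of 9 members in each liver pool; points are pools numbered by replicate, and the bar beside them is the mean ± SD (for Mmp12 the lower end of the bar is cut at 0). Col6a3, Lum, Pdgfrb and Ccn2 separate the pools labelled Tg from the C57BL/6J (6J) pools, Col1a1, Mmp12 and Acta2 peak in labelled Tg pool 3 at 95.3, 52.6 and 18.1 CPM, and Lrat peaks in labelled Tg pool 2 at 51.6 CPM.

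Fibrillar collagens had the largest group median among the collagen and matrix members, 1.40 on the log2 scale, with 4 of 5 at an unadjusted p below 0.05 and 0 of 5 called by edgeR. DESeq2 and the fit over all 6 RNA groups each called 4 of 5, all except Col5a1. Col1a1 was at 24.6, 25.1, 95.3 and 33.0 CPM in the livers labelled Tg and at 9.80, 20.1, 9.26 and 8.51 in the C57BL/6J livers. Every pool labelled Tg was above every control pool, and pool 3 stood far above the rest (log2 fold change 1.74 ± 0.46 (SE), adjusted p = 0.0877). Without labelled Tg pool 3 the Col1a1 estimate was 1.10 (adjusted p = 0.143), and without that pool and C57BL/6J pool 2 it was 1.45 (adjusted p = 0.00946). Col3a1 was at 67.9, 72.4, 172 and 80.2 against 29.2, 52.9, 34.3 and 32.1 CPM (log2 fold change 1.25 ± 0.30 (SE), adjusted p = 0.0704), and Col1a2 at 36.1, 38.8, 87.8 and 37.1 against 12.8, 28.8, 12.8 and 14.1 (log2 fold change 1.40 ± 0.34 (SE), adjusted p = 0.0764). Both had the same high pools, 3 among those labelled Tg and 2 among the controls, and their promoters are those printed above.

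The type V chains are built into the core of collagen I fibrils. Col5a2 had the smallest p of the fibrillar chains. It was at 21.2, 10.2, 21.2 and 16.5 CPM in livers labelled Tg and 4.05, 9.40, 5.35 and 4.63 in controls, with no overlap (log2 fold change 1.42 ± 0.30 (SE), adjusted p = 0.0570). Col5a1 was at 20.3, 24.1, 30.3 and 24.4 against 19.0, 23.3, 17.9 and 12.0 CPM, overlapping groups (log2 fold change 0.31 ± 0.18 (SE), adjusted p = 0.357); the difference between the chains was not tested.

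Among the microfibrillar and fibril-associated chains, all 4 were at an unadjusted p below 0.05. Col6a3 (chr1:90765923-90843971, GRCm38), the large chain of collagen VI, rose. Its levels were 50.0, 38.1, 65.1 and 40.7 CPM in livers labelled Tg and 19.4, 29.3, 19.7 and 18.2 in C57BL/6J livers (log2 fold change 1.03 ± 0.19 (SE), adjusted p = 0.0422). The lowest pool labelled Tg was above C57BL/6J pool 2, the highest control. Col6a1 and Col6a2, which pair with it, had log2 fold changes of 0.72 and 0.89, and Col14a1 was at 104, 199, 154 and 141 against 82.0, 105, 82.7 and 80.7 CPM (log2 fold change 0.64 ± 0.18 (SE), adjusted p = 0.101).

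Of the other matrix proteins, Lum (chr10:97565501-97572703), which encodes the collagen-binding proteoglycan lumican, rose. It was at 13.5, 26.9, 25.6 and 19.6 CPM against 3.99, 10.7, 4.19 and 4.28 (log2 fold change 1.74 ± 0.34 (SE), adjusted p = 0.0464), with no overlap even though C57BL/6J pool 2 stood well above the other controls. Dropping that control moved the estimate to 2.19 (adjusted p = 0.00834). Its neighbour Dcn was at 166, 264, 182 and 168 against 115, 167, 126 and 114 CPM (log2 fold change 0.44 ± 0.18 (SE), adjusted p = 0.219). Postn, the matricellular protein periostin, was at 8.25, 33.1, 19.2 and 17.7 against 11.2, 15.9, 13.3 and 10.2, where labelled Tg pool 1 was below every control (log2 fold change 0.49 ± 0.34 (SE), adjusted p = 0.459). Fbn1, the fibrillin of elastic microfibrils, had an estimate of 0.86, and the lysyl oxidase gene Loxl1 was at 4.86, 4.02, 9.46 and 5.97 against 1.71, 4.90, 2.32 and 1.99 CPM (log2 fold change 1.00 ± 0.36 (SE), adjusted p = 0.170).

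Among the proteases, labelled Tg pool 3 was again the highest. Mmp12, the macrophage metalloelastase, was at 1.31, 2.96, 52.6 and 5.05 CPM in livers labelled Tg and 0.285, 0.514, 0.938 and 0.645 in controls (log2 fold change 4.50 ± 1.18 (SE), adjusted p = 0.0878). Pool 3 stood far above the other pools labelled Tg, and without it the estimate was 2.24 with adjusted p = 0.117. Mmp13, an interstitial collagenase, was untested and listed at 0.655, 0.352, 8.16 and 0.814 against 0.0570, 0.277, 0.221 and 0.411 CPM, again highest in pool 3. Mmp2 had an estimate of 1.34 and Timp2 of 0.44, and neither was called by edgeR.

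Ccn2 (chr10:24595442-24598683) rose among the ligands and matricellular signals. It was at 10.5, 11.0, 9.13 and 8.90 CPM in the livers labelled Tg against 3.13, 3.87, 5.18 and 4.34 in controls (log2 fold change 1.12 ± 0.20 (SE), adjusted p = 0.0369). The groups did not overlap, and here neither labelled Tg pool 3 nor C57BL/6J pool 2 was the highest of its group. Tgfb2 was at 0.983, 1.56, 11.4 and 4.02 against 0.627, 1.30, 0.607 and 0.528 CPM (log2 fold change 2.35 ± 0.72 (SE), adjusted p = 0.117), with an estimate of 1.35 without labelled Tg pool 3. Tgfb1, the ligand that activates stellate cells most strongly, was at 9.01, 8.64, 15.8 and 14.1 against 12.4, 14.8, 6.56 and 7.63 CPM, overlapping groups (log2 fold change 0.06 ± 0.27 (SE), adjusted p = 0.921).

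Pdgfrb, the PDGF receptor of stellate cells, rose, with 46.2, 35.7, 42.6 and 36.6 CPM in livers labelled Tg and 18.6, 24.2, 20.5 and 17.3 in controls (log2 fold change 0.86 ± 0.14 (SE), adjusted p = 0.0294). No pool crossed between groups, and its range among the pools labelled Tg was narrow beside that of the collagens. Pdgfra was at 22.7, 29.9, 23.3 and 23.3 against 12.7, 21.4, 14 and 13.4 CPM (log2 fold change 0.56 ± 0.17 (SE), adjusted p = 0.121).

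Contractile and quiescence genes had other patterns. Acta2, the marker of activated stellate cells, was at 6.45, 4.87, 18.1 and 5.21 CPM in livers labelled Tg and 4.84, 9.95, 7.44 and 2.05 in controls (log2 fold change 0.35 ± 0.52 (SE), adjusted p = 0.738). Only pool 3 of those labelled Tg was above all controls, and without it the estimate was -0.25. Tagln was at 12.5, 10.7, 14.9 and 10.9 against 7.07, 7.82, 9.10 and 5.57 CPM, without overlap (log2 fold change 0.58 ± 0.18 (SE), adjusted p = 0.116). Its locus overlaps that of Pcsk7 on the opposite strand, and the strand setting of the counting is not given in the sources used here, so reads of the pair cannot be told apart.

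The muscle intermediate filament gene Des was at 10.9, 11.6, 13.2 and 8.95 against 8.04, 122, 9.04 and 5.46 CPM. The value of 122 CPM belongs to the pool with muscle RNA, and the estimate turned from -1.79 to 0.40 without it (adjusted p = 0.306 and 0.303). Vim was at 44.4, 61.2, 116 and 46.6 against 26.7, 50.2, 32.9 and 32.9 CPM (log2 fold change 0.76 ± 0.30 (SE), adjusted p = 0.200). Lrat, at 26.3, 51.6, 24 and 29.8 against 43.8, 39.5, 37.8 and 30.8, had 3 of the 4 pools labelled Tg below all controls and pool 2 above them (log2 fold change -0.34 ± 0.24 (SE), adjusted p = 0.473). Reln was at 247, 285, 201 and 246 against 201, 229, 193 and 184 CPM (log2 fold change 0.15 ± 0.14 (SE), adjusted p = 0.573).

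**Figure D3:**
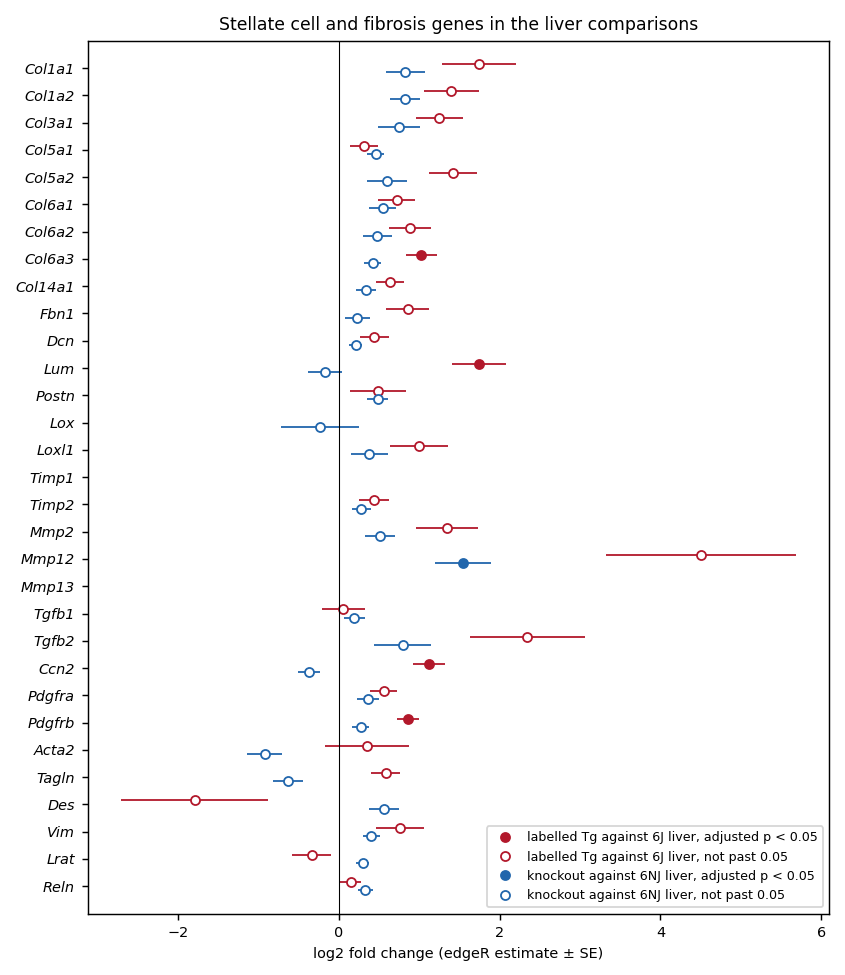
Log2 fold changes (points, edgeR estimates; bars, SE) of each member in livers labelled Tg against C57BL/6J livers and in knockout against C57BL/6NJ livers, with filled points at an adjusted p below 0.05; members without a point did not pass the low-count filter. Filled points are Col6a3, Lum, Ccn2 and Pdgfrb in the first comparison and Mmp12 in the second, and most estimates lie right of 0 in both.

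The wider pathways gave 3 calls of 107 genes tested in the livers labelled Tg (2.8%, against 1.33% of all genes). Their lists, like the members, were chosen with earlier results of these data known, so this share is a description. Of 4 further PDGF genes 1 rose, the ligand gene Pdgfc (7.37, 5.22, 10.3 and 9.12 against 3.13, 3.12, 2.15 and 2.82 CPM, log2 fold change 1.37 ± 0.22 (SE), adjusted p = 0.0317). Of 24 collagen biosynthesis genes tested 1 rose, Pcolce, whose product enhances procollagen cleavage (19.5, 15.2, 34.1 and 23.3 against 7.81, 11.8, 7.28 and 6.98 CPM, log2 fold change 1.30 ± 0.24 (SE), adjusted p = 0.0399). Of 29 other matrix genes 1 rose, the elastic fibre gene Emilin1 (55.2, 62.9, 135 and 106 against 32.0, 37.1, 29.6 and 26.4 CPM, log2 fold change 1.37 ± 0.25 (SE), adjusted p = 0.0386). In these 3 genes the groups did not overlap. At an unadjusted p below 0.05, 13 of the 29 other matrix genes were higher and 0 lower. Of the 24 collagen biosynthesis genes, 8 were higher and 1 lower. No gene of 27 in TGF-beta signalling, 16 other proteases and inhibitors or 7 YAP/TEAD targets was called by edgeR (5, 6 and 2 at an unadjusted p below 0.05).

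Markers of other cells were also read in these livers. No hepatocyte, Kupffer cell and macrophage, cholangiocyte, endothelial, portal fibroblast or adipocyte marker was called by edgeR. Of 6 T and B lymphocyte markers tested 1 rose. Estimates were above 0 for 2 of 8 vascular smooth muscle markers and 1 of 5 mesothelial markers. The 10 hepatocyte markers summed to 71396 to 79556 CPM in the livers labelled Tg and 102563 to 110090 CPM in C57BL/6J livers, with 0 of 10 called and 10 of 10 estimates below 0. The 12 Kupffer cell and macrophage markers summed to 536 to 867 CPM against 324 to 631 CPM, highest in labelled Tg pool 3 and C57BL/6J pool 2. At an unadjusted p below 0.05, 8 of these 12 were higher and 1 lower. Their estimates were above 0 for 11 of 12, with a median log2 fold change of 0.62. The 10 cholangiocyte markers summed to 104 to 189 CPM against 81.1 to 104 CPM, with 0 called, and the 12 endothelial markers to 733 to 1051 CPM against 710 to 745 CPM. The 10 portal fibroblast markers summed to 31.2 to 64.5 CPM against 13.5 to 40.4 CPM, and the 5 adipocyte markers to 36.4 to 79.9 CPM against 4.05 to 16.9 CPM. The 16 stellate cell markers, which include the members Lrat, Reln, Des and Pdgfrb, summed to 617 to 853 CPM against 525 to 845 CPM, overlapping groups, and 2 of the 16 rose, Pdgfrb and the globin gene Cygb (26.8, 27.4, 28.4 and 25.5 against 13.8, 14.3, 9.71 and 11.4 CPM, log2 fold change 1.01 ± 0.12 (SE), adjusted p = 0.00771). Counts on mitochondrial genes made up 5.52% in labelled Tg pool 1, 7.35% to 8.21% in pools 2 to 4 and 5.59% to 6.14% in the C57BL/6J pools. The part of these cells and of the mitochondrial share in the members' values was not tested, and in bulk tissue more cells of a type cannot be told apart from more RNA per cell.

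**Figure D4:**
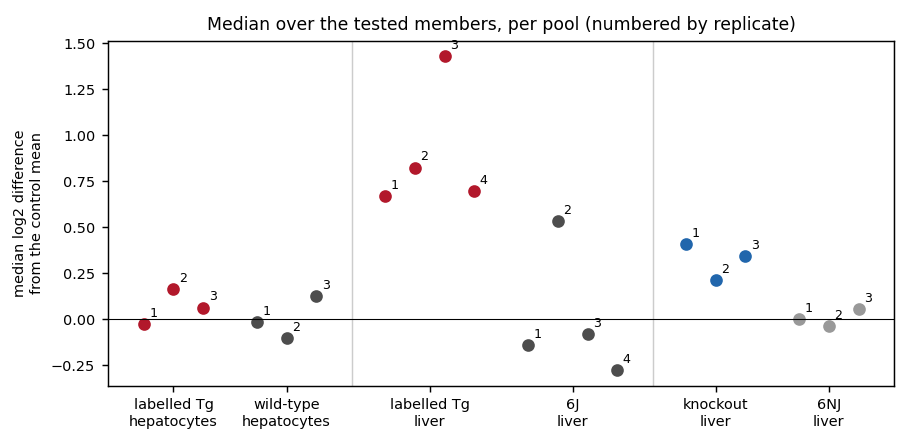
Median over the tested members of the log2 difference from the control mean (y axis), one point per pool, numbered by replicate, in the hepatocyte (20 members), labelled Tg liver (28) and knockout liver (29) comparisons. Pools labelled Tg lie at 0.67 to 1.43 and C57BL/6J pool 2 at 0.53 while the other C57BL/6J pools lie below 0; knockout livers lie at 0.21 to 0.41.

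Pool by pool, the median log2 difference of the 28 members from the C57BL/6J mean (on log2 of CPM + 0.5) was 0.67, 0.82, 1.43 and 0.70 in labelled Tg pools 1 to 4. Among the controls it was -0.14, 0.53, -0.08 and -0.28. C57BL/6J pool 2 had the highest control value of 24 of the 28 members. The pool with the muscle RNA was thus also the control with the highest members.

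Knockout livers were compared with C57BL/6NJ livers. The protease gene Mmp12 rose and no member fell by edgeR, so 1 of 29 tested was called, where 2.98% of 15942 genes were called (1.5% higher, 1.48% lower). At an unadjusted p below 0.05, 20 were higher and 3 lower, against 8.46% and 9.99% of all genes (18.4% in either direction), and 24 estimates were above 0 against 48.9%. The members' median log2 fold change was 0.38, and that of all genes -0.01. In all, 13 members were higher in every knockout pool than in every control and 3 were lower in every one, against 12.0% and 11.9% of all genes. Timp1 and Mmp13 did not pass the filter.

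Mmp12 (chr9:7344381-7369499) was at 3.4, 2.33 and 3.65 CPM in knockout and 1.24, 0.531 and 1.44 in C57BL/6NJ livers (log2 fold change 1.55 ± 0.35 (SE), adjusted p = 0.0482). The groups did not overlap, yet the adjusted p was between 0.0560 and 0.189 when any 1 of the 6 pools was left out, and 0.189 without knockout pool 1. Counts of called members ran from 0 to 4 over these omissions: 0 without knockout pool 1 or 3 or C57BL/6NJ pool 2 or 3, 4 without knockout pool 2, and 3 without C57BL/6NJ pool 1. DESeq2 called 8 members, 7 higher and 1 lower, and a fit over all 6 RNA groups called 0.

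All 5 fibrillar collagens and all 4 microfibrillar or fibril-associated chains were at an unadjusted p below 0.05 with estimates above 0, and 0 of the 9 were called by edgeR. DESeq2 called 4 of the 9 as higher, Col1a1, Col1a2, Col5a1 and Col6a3. Col1a2 was at 22.5, 17.9 and 29.2 CPM in knockout against 12.8, 10.8 and 15.7 in control livers (log2 fold change 0.83 ± 0.19 (SE), adjusted p = 0.0513). Col5a1 was at 19.0, 17.7 and 19.9 against 14.9, 12.6 and 13.4 (log2 fold change 0.46 ± 0.11 (SE), adjusted p = 0.0506), and Col1a1 at 23.9, 15.7 and 33.0 against 13.9, 11.1 and 15.9 (log2 fold change 0.83 ± 0.24 (SE), adjusted p = 0.108). Only Col1a1 of these overlapped, knockout pool 2 lying below C57BL/6NJ pool 3. Col6a3, called in the other liver comparison, was at 24.1, 21.7 and 26.6 against 18.7, 17.8 and 17.3 CPM (log2 fold change 0.42 ± 0.11 (SE), adjusted p = 0.0745).

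The remaining matrix genes were not called by edgeR or DESeq2. Postn was at 9.61, 8.73 and 11.0 against 7.15, 6.49 and 7.24 CPM (log2 fold change 0.49 ± 0.13 (SE), adjusted p = 0.0905) and Dcn at 128, 133 and 122 against 109, 113 and 107, both without overlap. Lum was at 4.58, 4.10 and 5.31 against 6.91, 4.10 and 4.75 CPM, with overlap (log2 fold change -0.17 ± 0.21 (SE), adjusted p = 0.727). Loxl1 was at 4.87, 3.65 and 3.92 against 2.20, 3.69 and 3.56, and Lox at 0.784, 0.278 and 0.271 against 0.464, 0.531 and 0.566 CPM (log2 fold change -0.23 ± 0.49 (SE), adjusted p = 0.845; estimate -0.92 without knockout pool 1).

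In 3 of 29 members tested every knockout pool was below every control, where 11.9% of all genes were, so the count is near that share. These were Acta2, Tagln and Ccn2, and none was called by edgeR in the main fit. Acta2 was called as lower in 2 of 12 alternatives, DESeq2 and no filter. Acta2 was at 3.59, 2.43 and 2.40 CPM against 5.25, 4.42 and 6.25 (log2 fold change -0.92 ± 0.21 (SE), adjusted p = 0.0525). Tagln was at 5.92, 6.54 and 6.33 against 7.61, 8.49 and 12.8 (log2 fold change -0.63 ± 0.19 (SE), adjusted p = 0.110), and Ccn2 at 7.19, 6.75 and 5.92 against 7.92, 9.23 and 8.28 (log2 fold change -0.37 ± 0.13 (SE), adjusted p = 0.175). The first 2 encode contractile proteins shared by myofibroblasts and smooth muscle, and the 8 vascular smooth muscle markers summed to 174 to 189 CPM against 171 to 191 CPM, with 0 of 8 called. The other cytoskeletal members, Vim and Des, were higher in every knockout pool than in every control, and edgeR called neither. Vim was at 35.6 to 44.1 against 28.4 to 31.6 CPM (log2 fold change 0.41 ± 0.11 (SE), adjusted p = 0.0794). Des was at 6.71 to 11.2 against 5.76 to 6.28 CPM (log2 fold change 0.56 ± 0.18 (SE), adjusted p = 0.146).

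Receptors and the genes of quiescent stellate cells were not called by edgeR, and DESeq2 called 1, Reln. Pdgfrb was at 17.5, 20.4 and 20.02 against 14.4, 15.9 and 17.3 CPM (log2 fold change 0.28 ± 0.11 (SE), adjusted p = 0.214) and Pdgfra at 11.7, 14.6 and 10.1 against 9.04, 8.73 and 10.2. Lrat was at 36.3, 34.8 and 36.3 against 27.5, 28.3 and 31.1 (log2 fold change 0.30 ± 0.08 (SE), adjusted p = 0.100), and Reln at 196, 197 and 197 against 171, 154 and 141 (log2 fold change 0.33 ± 0.09 (SE), adjusted p = 0.102). Every knockout pool was above every control for Lrat and Reln. Tgfb1 was at 21.8, 20.4 and 23.4 against 20.2, 15.4 and 21.8 CPM, with overlap (log2 fold change 0.19 ± 0.13 (SE), adjusted p = 0.479).

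Of the pathway lists, 3 of 107 genes tested were called in the knockout livers (2.8%), close to the 2.98% of all genes. The procollagen peptidase gene Adamts2 rose, from 6.53, 6.46 and 7.24 CPM in controls to 9.41, 10.0 and 9.50 (log2 fold change 0.51 ± 0.11 (SE), adjusted p = 0.0471), as did fibulin Fbln1 (2.20, 1.53 and 2.49 to 5.00, 3.72 and 5.78 CPM, log2 fold change 1.22 ± 0.24 (SE), adjusted p = 0.0326). The basement membrane collagen Col15a1 fell, from 13.8, 11.4 and 10.0 to 5.07, 4.10 and 5.82 CPM (log2 fold change -1.24 ± 0.18 (SE), adjusted p = 0.00700). They were 1 of 24 collagen biosynthesis genes and 2 of 29 other matrix genes, and no gene of the TGF-beta, PDGF, protease or YAP/TEAD lists was called by edgeR (4, 1, 4 and 2 at an unadjusted p below 0.05). Skeletal muscle markers were higher in the knockout pools, 13 of 14 tested being called, and the 5 adipocyte markers summed to 112 to 232 CPM in knockout against 18.0 to 65.9 CPM in control livers. The muscle sums varied between knockout pools 1, 2 and 3 (289, 66.4 and 219 CPM) and reached 5596 CPM in wild-type C57BL/6J pool 2. Whether they follow genotype was not tested apart from this variation between pools. The 16 stellate cell markers summed to 644 to 657 CPM against 503 to 558 CPM, with 0 of 16 called and 8 higher at an unadjusted p below 0.05. The part of muscle, fat and stellate cells in the members' values was not tested.

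Set side by side, the liver comparisons, which share no libraries, had 28 members tested in both. Of these, 22 had estimates above 0 in both, 4 were above 0 in livers labelled Tg and below 0 in knockout livers (Lum, Ccn2, Acta2 and Tagln), 2 were the reverse (Des and Lrat) and 0 were below 0 in both. The estimate was larger in the livers labelled Tg for 23. The difference of the effects was then tested directly in 1 fit over the 14 livers, where 1.02% of 16295 genes were called (0.614% higher, 0.411% lower). By unadjusted p below 0.05, 5 of the 31 members had a higher and 0 a lower effect in the livers labelled Tg, against 9.33% and 7.6% of all genes (16.9% in either direction). The median difference was 0.57 over the members and 0.01 over all genes, and 25 members were above 0, against 50.9%. These counts include Lox, Timp1 and Mmp13, which did not pass the filter in the labelled Tg comparison. Their differences were 1.22, 1.35 and 1.62, and 0.37, 0.38 and -0.35 without labelled Tg pool 3. The members' median was 0.27 without that pool. Ccn2 was the only member called by edgeR, its effect being higher in the livers labelled Tg by 1.47 on the log2 scale ± 0.26 (SE), adjusted p = 0.0209. The 14 values are given above: the pools labelled Tg were above their controls and the knockout pools below theirs. Tagln (log2 difference 1.20 ± 0.28 (SE), adjusted p = 0.0532) and Lum (log2 difference 1.90 ± 0.45 (SE), adjusted p = 0.0578) were not called by edgeR but were by DESeq2. Leaving out any single labelled Tg or C57BL/6J pool left Ccn2 called, whereas its adjusted p was 0.0676, 0.0600 and 0.0691 without knockout pool 1, 2 or 3 and 0.0723 and 0.0556 without C57BL/6NJ pool 2 or 3. Counts of called members were 0 in those 5 fits, 3 without labelled Tg pool 2, 2 without labelled Tg pool 1, C57BL/6J pool 2 or 3 or C57BL/6NJ pool 1, and 1 otherwise. The adjusted p of Ccn2 was 0.0567 with C57BL/6J pool 2 and knockout pool 1 both left out. The pools labelled Tg and the knockout pools have controls of different substrains and were sequenced in different studies, which cannot be told apart from the labels in this difference.

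In plated hepatocytes, where 20 members passed the filter, Lox fell in the pools labelled Tg and 0 members rose by edgeR. DESeq2 called 3, Acta2 and Mmp12 as higher and Lox as lower. Of 13770 genes, 3.15% were called (1.53% higher, 1.62% lower). At an unadjusted p below 0.05, 2 members were higher and 1 lower, against 13.5% and 15.3% of all genes, the median was 0.15 against -0.02, and 12 estimates were above 0 against 48.9%. In 1 member the groups separated upward and in 1 downward, against 15.7% and 16.8% of all genes. The 11 untested members were Col1a2, Col6a2, Col6a3, Fbn1, Lum, Postn, Loxl1, Mmp2, Pdgfrb, Des and Lrat.

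Lox, the lysyl oxidase that crosslinks collagen and elastin, was at 0.376, 0.487 and 0.612 CPM in hepatocytes labelled Tg and 1.71, 2.25 and 4.07 in wild-type hepatocytes (log2 fold change -2.40 ± 0.40 (SE), adjusted p = 0.0329). These are 46 reads over the pools labelled Tg and 282 over the wild-type pools, with no overlap. The call was lost in 5 of the 6 fits that left out 1 pool (adjusted p = 0.0628 to 0.168; 0.0175 without labelled Tg pool 3). Counts of called members then ran from 0 to 2, being 0 without labelled Tg pool 1 or 2 or wild-type pool 1, 2 or 3, and 2 without labelled Tg pool 3.

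Acta2 was at 40.9, 17.0 and 17.6 CPM in hepatocytes labelled Tg and 7.99, 4.37 and 6.63 in wild-type ones (log2 fold change 2.06 ± 0.45 (SE), adjusted p = 0.0599). Every pool labelled Tg was above every wild-type pool, and pool 1 was the highest by a wide margin. Without that pool the estimate was 1.46 (adjusted p = 0.112). Acta2 was called in 4 of 11 alternatives, among them DESeq2 (adjusted p = 0.000112), and adjusted p over all 11 ran from 0.000112 to 0.219. The 17 skeletal muscle markers, most of their sum from the tropomyosin gene Tpm2, summed to 230.5 to 475 CPM against 95.5 to 159 CPM and were also highest in that pool. The 8 vascular smooth muscle markers summed to 137, 104 and 116 CPM in pools labelled Tg against 98.9, 102 and 105 in wild-type pools. Of the 4 tested, 0 were called and 1 estimate was above 0, at an unadjusted p below 0.05. The 5 adipocyte markers summed to 20.04 to 48.1 CPM against 3.35 to 5.17 CPM, and both tested ones rose. The part of such cells in the Acta2 value was not tested. Mmp12 was at 3.63, 8.83 and 10.1 against 1.68, 2.61 and 4.24 CPM (log2 fold change 1.43 ± 0.45 (SE), adjusted p = 0.112), overlapping at labelled Tg pool 1, beside 12 Kupffer cell and macrophage markers at 346 to 662 against 207 to 318 CPM, with 0 of 12 called and 12 of 12 estimates above 0.

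The members of highest level in hepatocytes overlapped between the groups. Vim was at 1292, 1128 and 863 CPM in hepatocytes labelled Tg against 1185, 917 and 1179 (log2 fold change 0.05 ± 0.21 (SE), adjusted p = 0.880). Ccn2 was at 477, 350.5 and 422 against 249, 636 and 638 (log2 fold change -0.23 ± 0.35 (SE), adjusted p = 0.655), and Tagln at 135, 62.5 and 63.6 against 143, 111 and 128 (log2 fold change -0.48 ± 0.35 (SE), adjusted p = 0.354). For Ccn2, wild-type pool 1 was below every pool labelled Tg and the other 2 wild-type pools were above them. Tgfb1 was at 13.5, 16.3 and 14.4 against 15.9, 11.3 and 18.2 CPM and Tgfb2 at 26.9, 32.0 and 59.1 against 25.0, 42.1 and 37.2.

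**Figure D5:**
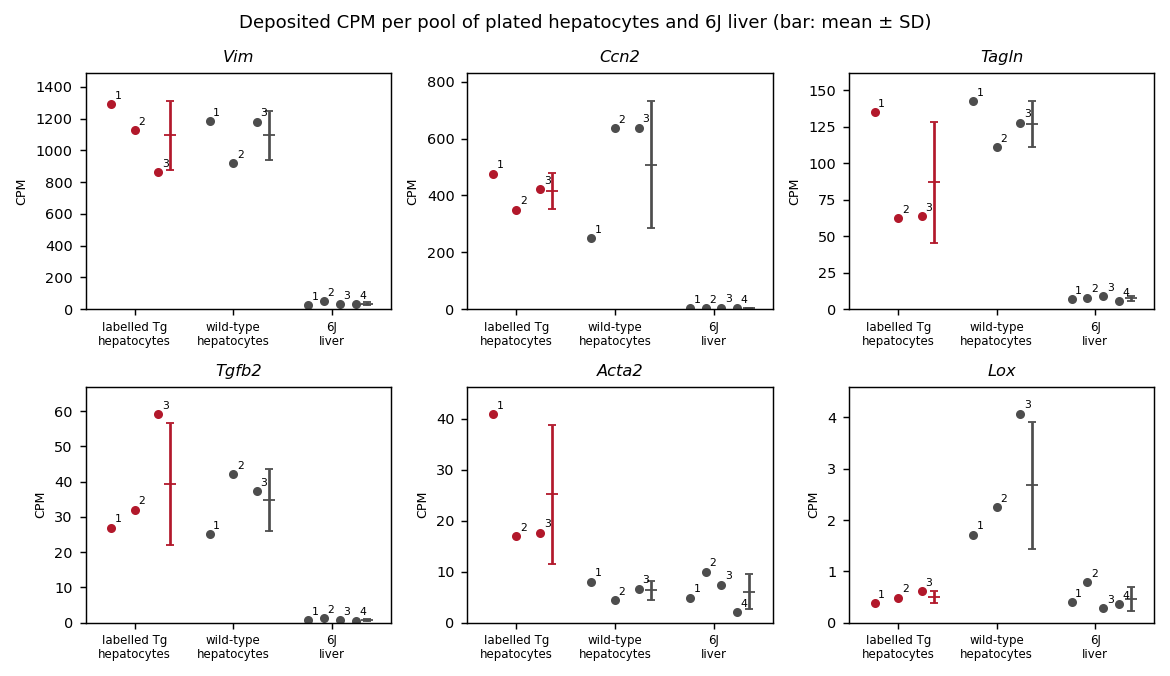
Deposited CPM of 6 members in plated hepatocytes labelled Tg, wild-type hepatocytes and wild-type C57BL/6J (6J) liver; points are pools numbered by replicate, bars mean ± SD. Vim, Ccn2, Tagln and Tgfb2 are near 0 in liver on these axes, Acta2 is highest in labelled Tg pool 1 at 40.9 CPM, and Lox is at most 0.612 CPM in the pools labelled Tg.

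Of the pathway lists, 8 of 95 genes tested were called in hepatocytes (8.42%, against 3.15% of all genes). Because the lists were chosen with earlier results of these data known, this share is a description. Those that fell in the pools labelled Tg were the integrin chain Itgb1 (1 of 26 TGF-beta signalling genes tested, log2 fold change -1.0 ± 0.19 (SE), adjusted p = 0.0473), the procollagen C-proteinase Bmp1 (log2 fold change -0.71 ± 0.14 (SE), adjusted p = 0.0473), the nidogen Nid2 (log2 fold change -1.50 ± 0.16 (SE), adjusted p = 0.0134), the membrane metalloproteinase Mmp14 (log2 fold change -0.97 ± 0.16 (SE), adjusted p = 0.0333) and the kinase Lats2 (log2 fold change -1.06 ± 0.16 (SE), adjusted p = 0.0297). Those that rose were the procollagen N-proteinase Adamts14 (log2 fold change 1.98 ± 0.39 (SE), adjusted p = 0.0491), tissue plasminogen activator Plat (log2 fold change 2.18 ± 0.34 (SE), adjusted p = 0.0298) and the YAP target Amotl2 (log2 fold change 0.62 ± 0.11 (SE), adjusted p = 0.0333). By list these are 2 of 22 collagen biosynthesis genes, 1 of 22 other matrix genes, 2 of 14 other proteases and inhibitors and 2 of 8 YAP/TEAD targets, each split list having 1 gene in each direction. Of the 7 stellate cell markers tested 1 fell, Nes (42.0, 25.6 and 34.5 against 83.5, 179 and 118 CPM, log2 fold change -1.84 ± 0.33 (SE), adjusted p = 0.0396). Most of the 7 went the other way, with 5 estimates above 0 and a median log2 fold change of 0.55. By unadjusted p below 0.05, 3 of the 7 were higher and 1 lower.

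Whether the effect of the Tg label differed between liver and hepatocytes was tested for all 31 members. None was called by edgeR at an adjusted p below 0.05, where 0.842% of 15565 genes were; 6 were higher and 2 lower in liver at an unadjusted p below 0.05, against 9.03% and 13.8% of all genes (22.8% in either direction), and DESeq2 called 1. Leaving out 1 pool gave 3 calls without hepatocyte pool 3 labelled Tg, 1 without liver pool 1 or 2 labelled Tg, and 0 otherwise. The median difference, liver effect minus hepatocyte effect, was 0.36 over the members and -0.09 over all genes, and 20 members were above 0, against 45.4%. Only 20 of the 31 members passed the filter in hepatocytes alone, and the others entered this fit through liver. Lum, for example, had 8 reads over the hepatocytes labelled Tg and 5 over the wild-type ones. The hepatocyte effect of such members is poorly measured, so these counts and this median are a description. The smallest adjusted p belonged to Lox (log2 difference 3.22 ± 0.80 (SE), adjusted p = 0.0696), the liver values being 0.328, 0.502, 2.46 and 0.868 CPM in pools labelled Tg and 0.399, 0.790, 0.276 and 0.352 in controls. Without liver pool 3 labelled Tg the Lox difference was 2.52. Over all fits that left out 1 pool it ran from 2.52 to 3.64, with adjusted p from 0.0230 to 0.186. Of the pathway lists, 6 of 110 genes were called (5.45%), with liver effects above the hepatocyte effects for Itgb1, Nid2, Emilin1 and Hspg2 and below them for Adamts14 and Amotl2.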

How the data were processed

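RNA-seq was read from 20 libraries of pooled liver or hepatocyte RNA, oligo(dT)-selected and sequenced on Illumina instruments, per the labels' protocols. Per the submitters' processing notes the authors used bcl2fastq, STAR 2.0.4b, GRCm38 and featureCounts 1.45; the strand setting and the annotation release are not given in the sources used here. The deposited tables give a raw count per gene, which was tested. The deposited CPM is the count scaled to a common library total, and the deposited RPKM divides that CPM by gene length; both were recomputed and differed by at most 4.95e-10 and 1.60e-10. Symbols were matched for 40254 of 41388 identifiers.

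Genes of low count were removed by filterByExpr of edgeR 4.0.16 (count 10, total 15) under R 4.3.3. The remaining counts, scaled by TMM, went into edgeR's two-sided quasi-likelihood F-test on each comparison's own libraries. Adjusted p-values are Benjamini-Hochberg over all genes tested; "called" means an adjusted p below 0.05. Fold changes are log2 estimates ± SE. Levels are CPM per pool in replicate order unless RPKM is named. The fits were tested on simulated data. Alternatives were DESeq2 1.42.0, RLE scaling, no filter, a fit over all 6 RNA groups, a replicate block, and leaving out pools. Members and lists were chosen with earlier results of these data known. Values per pool are given for called members, the 6 of highest liver RPKM, the smallest p of each role group in each liver comparison, and Acta2, Lrat and Col1a1. They are not given in every comparison. In knockout livers Vim is given as a range and the levels of Col14a1 are left out. Other members shown were chosen after their values were seen. Of the pathway lists, called genes are named. The 10 CLIP libraries of hepatocytes labelled Tg (6151 to 10902 counts) enter no comparison. Counting limits cover counting error only.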

Additional observations from a re-analysis of the deposited data

Results flagged for a closer look

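In 16 of 62 groups of 4 liver pools, the gap between the highest pool and its nearest neighbour, as a share of the group's whole range, was above Dixon's 95% critical value; chance flags about 1 in 20 groups. Labelled Tg pool 3 was the high pool in 6 of these. Its levels were 95.3 CPM for Col1a1, 87.8 for Col1a2, 172 for Col3a1, 52.6 for Mmp12, 8.16 for Mmp13 and 18.1 for Acta2. C57BL/6J pool 2, the pool with muscle RNA, was the high pool in 8. It was at 20.1 CPM for Col1a1, 28.8 for Col1a2, 29.3 for Col6a3, 105 for Col14a1, 10.7 for Lum, 1.30 for Tgfb2, 21.4 for Pdgfra and 121.9 for Des. Labelled Tg pool 2 was high for Dcn, at 264 CPM, and for Pdgfra, at 29.9 CPM.

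The effect on Ccn2 differed between the livers labelled Tg and the knockout livers by 1.47 on the log2 scale in the direct test of the difference (edgeR adjusted p = 0.0209).

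Some members had counts in the 10 CLIP libraries, which sample RNA fragments bound by a protein and enter no comparison above. Over all 10 libraries (80854 counts, where a count of 0 allows a share of up to 0.00371%), Des had 199 counts, Pdgfra 7, Timp1 6, Reln 6, Col6a2 5, Tgfb2 5 and Fbn1 4. The Des counts were 43, 0, 37, 45, 1, 34, 0, 0, 0 and 39 in libraries 1 to 10, so 5 libraries held nearly all of them. In the RNA-seq libraries of hepatocytes labelled Tg, Des was nearly absent, with 25 reads over 3 pools (mean 0.269 CPM). Whether the CLIP counts reflect binding of Des RNA was not tested. No control CLIP libraries were used here.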

How the results depend on the processing

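Counts of called members moved with the settings in every comparison except wild-type liver against hepatocytes, where 26 to 29 were called. In hepatocytes DESeq2 called 3 members, no filter 2, the fit over all 6 RNA groups 5 (its median over all genes moved from -0.02 to 0.17) and leaving out 1 pool 0 to 2. In livers labelled Tg the counts were 13 with DESeq2, 14 over all groups, 12 with C57BL/6J pool 2 left out as a muscle pool, 10 without labelled Tg pool 3 and C57BL/6J pool 2, and 0 to 12 without 1 pool. In knockout livers they were 8 with DESeq2, 3 with RLE scaling, 10 with no filter, 0 over all groups, 0 without knockout pool 1 as a muscle pool and 0 to 4 without 1 pool. For the liver and hepatocyte difference of effects they were 1 with DESeq2, 2 over all groups, 1 without labelled Tg pool 3 and C57BL/6J pool 2, and 0 to 3 without 1 pool. For the difference between livers labelled Tg and knockout livers they were 3 with DESeq2, 3 with no filter, 0 over all groups, 2 without labelled Tg pool 3 and C57BL/6J pool 2, and 0 to 3 without 1 pool. With replicate number as a block, 0 members were called in hepatocytes, 1 (Lum) in livers labelled Tg, 3 in knockout livers, 29 between tissues and 0 for the liver and hepatocyte difference of effects. For the difference between livers labelled Tg and knockout livers the block called 1 member, Lum (adjusted p = 0.0346), in place of Ccn2 (0.0837). Whether equal numbers pair the pools is not stated. Correlations of the deviations of equally numbered pools ran from -0.117 to 0.131 within the liver comparisons. In hepatocytes they were 0.777, -0.663 and -0.0171 for numbers 1, 2 and 3, which does not settle whether those pools were paired. No called member changed direction under any of these settings; the cause of the moved counts was not tested.

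Depth limits the rarest members, since Lum, Loxl1 and Lrat rest on 5, 2 and 8 reads over the wild-type hepatocytes, and precision elsewhere rests on 3 or 4 pools a group.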
